A study of Mus musculus with 4 samples.

Results

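The Notch ligands, receptors and modulators examined here are 10 genes: the receptors Notch1, Notch2 and Notch3, the ligands Dll1, Dll4, Jag1 and Jag2, the glycosyltransferase Lfng, and the target genes Hes1 and Hey1. They were found on the array by gene symbol, or by the current symbol of the transcript accession, which gave 15 of the 41174 probes. Their RNA was measured in OP9, a line of stromal cells from mouse bone marrow that is used to support blood progenitors in culture. The Wnt3A group (2 arrays) carried the retroviral vector LZRS-IRES-GFP with the Wnt3A gene, and the Control group (2 arrays) carried the same vector without it, so both groups share the vector and its GFP reporter and differ in the insert. The labels do not say whether the carrier cells were a pool or a clone, nor whether each replicate was a culture of its own, and the p-values therefore cover only the spread between these samples, which may be technical. The comparison asks how Wnt3A changed the expression of Notch pathway genes in the supporting cells.

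Notch receptors are membrane proteins that are activated by ligands of the Delta and Jagged families on a neighbouring cell. Binding leads to cleavage of the receptor, first by an ADAM protease and then by gamma-secretase, and the freed intracellular part enters the nucleus, joins the DNA-binding protein RBPJ and a Mastermind coactivator, and switches on targets such as the Hes and Hey repressors. Fringe enzymes extend the O-fucose sugars on the receptor and so change which ligands it answers to. In blood development Notch signals direct progenitors to the T cell lineage, and OP9 cells into which Dll1 has been introduced are a standard stroma for growing T cells.

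Values are intensities from the deposited table, in which the median of every array is 1. The floor of detection was estimated at 0.0533 and 0.0729 in the Wnt3A arrays and at 0.0702 and 0.0631 in the Control arrays. All 15 probes were above it on all 4 arrays, and 3 of them (the brighter Notch1 probe, Dll1 and Jag2) were above a floor 2 times as high on only 3 arrays. Between 80.7% and 83.7% of the spots of an array were above the floor, so passing it is weak evidence of expression. The single Wnt3a probe read 0.0112 and 0.123 in the Wnt3A arrays and 0.0151 and 0.0134 in the Control arrays. Of these only the value of Wnt3A replicate 2 exceeded the floor, and the probe lies at base 2599 of the transcript, where the labels do not say that the insert reaches. All 8 stromal markers were above the floor on every array, 4 higher and 4 lower in the Wnt3A group with a median log2 difference of 0.03. Their summed intensities, 1712 and 1749 in the Wnt3A arrays and 663.3 and 926.4 in the Control arrays, followed the 3 collagens Col1a1, Col1a2 and Col3a1 (log2 differences of 1.81, 1.35 and 4.27), while Pdgfra (-2.25) and Vcam1 (-1.61) lay on the other side. In limma 0 of the 8 passed. At an unadjusted p under 0.05, 3 of the 8 were higher and 1 lower, against 6.31% of all genes higher and 6.34% lower. Of 8 endothelial markers, 4 were above the floor in each Wnt3A array and 5 in each Control array, with sums of 7.96 and 7.53 against 9.60 and 9.71. Pecam1, Cdh5, Esam and Cldn5 were above it on all 4 arrays, Kdr and Tek on 0, and Emcn and Tie1 in 1 Control array each. All 8 blood cell markers on the array were above the floor, 4 higher and 4 lower, and their sums of 7.27 and 6.64 in the Wnt3A arrays and 9.45 and 7.68 in the Control arrays followed Cd68 (-1.38), while Lyz2 (1.27) and Csf1r (0.77) lay on the other side. The part of these differences in the results was not tested, and in such bulk RNA fewer cells of a type and less RNA per cell cannot be told apart.

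The scanner output files deposited for the same samples did not match the table array by array. All 4 columns of the table correlated best with the scanner file of Control replicate 2 (Pearson's r of 0.828 to 0.845 across spots, which are not independent, against 0.629 to 0.772 with the other files). The scanner file of Control replicate 1 was faint, with 41.8% of spots well above background, against 85.7% and 71.6% in the Wnt3A files and 84.9% in that of Control replicate 2. The table is used throughout, and the scanner values of the members are given beside it. The probe names did fit the rows of the table: over 245 probes printed at least 5 times, the median standard deviation between the spots of a probe was 0.08 to 0.10 (log2) within an array, against 3.60 to 3.75 over all these spots.

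The sequences of the probes that read Lfng and Hes1 are given because Lfng was the member whose change passed the test and Hes1 is the best known target gene of the pathway. The Lfng probe shown is not the one that passed, but the other probe of the gene, which did not pass. It lies in the coding part of the transcript, starting at base 1070, at chr5:140866676-140866735 on the plus strand of build mm8. The Hes1 probe starts at base 408 of its transcript and covers chr16:29985644-29985939 on the plus strand, a span of 296 bases for a probe of 60, so it crosses an exon junction.
Lfng probe: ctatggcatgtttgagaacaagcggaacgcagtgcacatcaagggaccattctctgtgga
Hes1 probe: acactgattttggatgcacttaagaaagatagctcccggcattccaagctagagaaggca

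Lfng, which encodes Lunatic fringe, was the only member to pass the test across all probes. By its brighter probe (chr5:140867744-140867803, starting at base 2008 of the transcript), the intensity was 4.82 and 7.65 in the Wnt3A arrays, against 0.210 and 0.326 in the Control arrays. Both Wnt3A arrays were far above both Control arrays, and the groups did not overlap. The log2 difference was 4.55 ± 0.41 (SE, 2 arrays per group), or 23.4-fold, with a 95% confidence interval of 3.45 to 5.65 and an adjusted p of 0.0452 in limma. The Control values were low, though above their floors of 0.0702 and 0.0631, so the fold depends on weak signals. The coding probe printed above read 2.004 and 7.34 in the Wnt3A arrays and 0.171 and 0.248 in the Control arrays. It was also higher in both Wnt3A arrays, but these lay further apart, and the log2 difference of 4.23 ± 0.71 missed the threshold (adjusted p 0.125). With the mean of both probes the difference was 4.39 and the adjusted p in limma 0.0570.

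The Lfng call depended on the processing, while its size in the table changed little. Several settings refitted the same values. As the groups did not overlap, leaving out 1 array could not reverse the direction. Leaving out any 1 of the 4 arrays (Control replicate 1 or 2, or Wnt3A replicate 1 or 2) kept the difference between 4.23 and 4.86. These fits leave 1 array in a group, too few to judge the call, and are read for size only. The call held in 4 of 13 alternatives in the table, a total that includes these fits. In the scanner files, whose raw values are not scaled between arrays, the brighter probe was well above background in 3 files, not in Control replicate 1, and the coding probe in 3 files, not in Wnt3A replicate 2. After scaling, these probes of 1 gene had log2 differences of opposite sign, 3.34 ± 1.42 and -4.14 ± 1.42, neither of which passed (adjusted p 0.9999 and 0.916 in limma). The SE was 1.42 for all 11 member probes measured in the scanner files. It was pooled over probes and is not the spread of 1 probe. There 0 of 28752 probes rose and 0.00696% fell, and 1.17% were higher and 1.44% lower at an unadjusted p under 0.05. Of the 15 member probes, 1 rose and 0 fell in limma in the table, where 0.424% of 33709 probes rose and 0.255% fell. At an unadjusted p under 0.05, 2 member probes were higher (both of Lfng) and 3 lower (both of Notch1, and Hey1), against 6.95% of all probes higher and 6.54% lower.

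The stretch of 250 bases before the start of Lfng was searched on both strands for the core of the RBPJ site, TGGGAA. It was also searched for CTTTGA, a form of the core of the site of TCF/LEF, the factors through which Wnt signals act on genes. It held the RBPJ core at bases -135 to -130 on the minus strand (reading TTCCCA) and at bases -108 to -103 on the plus strand. These bases are counted back from the start of the gene. CTTTGA was not found on either strand, and other forms of the TCF/LEF core were not searched for. The sequence, from RefSeq on build GRCm38.p6 (chr5:140607091-140607340, plus strand), is shown because Lfng moved the most among the members, with the matches in capitals.
Lfng upstream: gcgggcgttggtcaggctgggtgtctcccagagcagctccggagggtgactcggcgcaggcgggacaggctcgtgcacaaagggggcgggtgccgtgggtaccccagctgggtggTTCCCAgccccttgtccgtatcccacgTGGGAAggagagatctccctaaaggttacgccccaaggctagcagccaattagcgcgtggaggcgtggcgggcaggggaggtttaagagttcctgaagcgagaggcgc
Such stretches were available for 8 of the 10 members (9 stretches, 2 of them for Dll1), not including Hes1 and Hey1. Among them TGGGAA was found in that of Lfng and CTTTGA in 0. Over all 32851 stretches of this length the shares were 21.6% and 13.8%, so these matches are descriptions of sequence only.

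**Figure D1:**
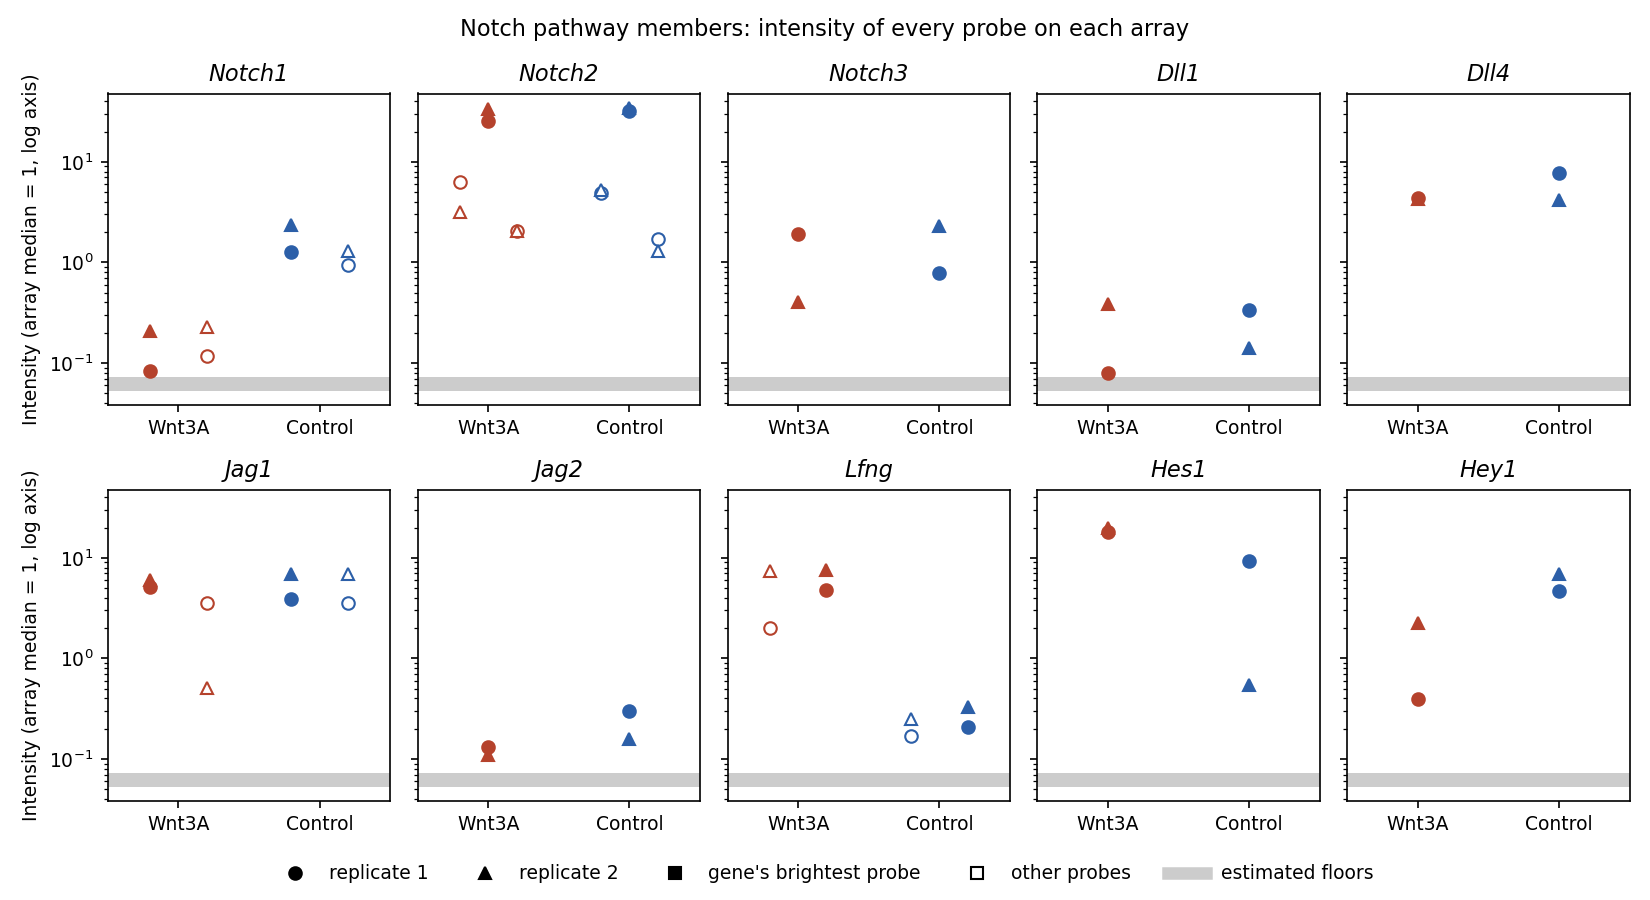
Intensity of every member probe on each array (y axis, log scale, array median = 1), with the Wnt3A arrays left of the Control arrays in each panel, circles for replicate 1, triangles for replicate 2, filled symbols for the brightest probe of a gene and open symbols for its other probes; the grey band spans the estimated floors of the 4 arrays. Both Lfng probes stand higher and both Notch1 probes lower in the Wnt3A arrays, and the Control arrays of Hes1 are far apart at 9.34 and 0.540.

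Among the receptors, Notch1 was lower in both Wnt3A arrays by both of its probes, without passing the test. Its brighter probe (chr2:26281261-26281319 on mm8, minus strand) read 0.0829 and 0.206 in the Wnt3A arrays, against 1.26 and 2.37 in the Control arrays. The groups did not overlap, and the log2 difference was -3.71 ± 0.59 (95% confidence interval -5.32 to -2.11, adjusted p 0.115 in limma). The value of Wnt3A replicate 1 was near its floor of 0.0533, so the size depends in part on weak signals. The other probe lies next to it (chr2:26281319-26281378) and read 0.118 and 0.228 in the Wnt3A arrays and 0.952 and 1.29 in the Control arrays, a difference of -2.74 ± 0.44 (adjusted p 0.117). The probes share an end and are no independent measure of the gene.

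The brighter Notch1 probe was printed 10 times on each array, which shows how much of the spread lies within an array. Its spots ran from 0.0464 to 0.110 and from 0.167 to 0.237 in the Wnt3A arrays, and from 1.19 to 1.35 and from 2.17 to 2.50 in the Control arrays. No spot of a Wnt3A array reached any spot of a Control array, as the plot of the repeated spots shows. The lowest, at 0.0464 in Wnt3A replicate 1, was below the floor of that array, 0.0533. The spots of an array had a standard deviation of 0.38 and 0.18 (log2) in the Wnt3A arrays and of 0.06 and 0.06 in the Control arrays, less than the 0.90 between the Wnt3A arrays and the 0.57 between the Control arrays. The spread behind the test thus lay mostly between arrays, and repeated spots are not replicates of the condition. In the scanner files its log2 difference was -0.04 ± 1.42 (SE pooled over probes), with an interval of -2.83 to 2.75.

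**Figure D2:**
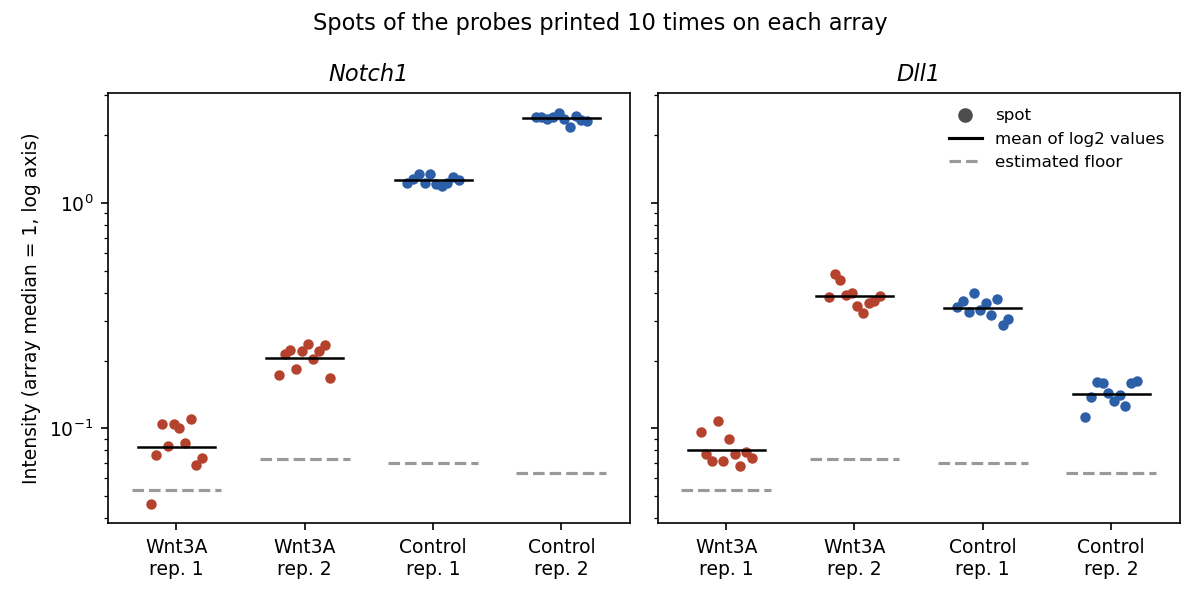
Intensity of each of the 10 spots of the Notch1 and Dll1 probes (y axis, log scale, array median = 1) on the 2 Wnt3A and the 2 Control arrays, with the mean of log2 values as a black line and the estimated floor as a dashed line. The Notch1 spots of both Wnt3A arrays, at 0.0464 to 0.237, lie below all those of the Control arrays, while for Dll1 the arrays of a group lie further apart than the spots of an array.

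Notch2 and Notch3 did not pass the test. The brightest of the 3 Notch2 probes (chr3:98235396-98235455) read 25.5 and 33.4 in the Wnt3A arrays and 32.0 and 34.5 in the Control arrays. These values overlapped, and the interval of the log2 difference ran from -1.04 to 0.69 around -0.18 (adjusted p 0.870 in limma). The other Notch2 probes differed by -0.17 ± 0.46 and 0.46 ± 0.34, with adjusted p of 0.921 and 0.648 in limma. Notch3 (chr17:31849609-31849668) read 1.94 and 0.402 in the Wnt3A arrays and 0.789 and 2.31 in the Control arrays. Each group held a high and a low array, and the interval of -3.23 to 2.03 around -0.60 allows large changes either way. Notch4, a receptor best known from endothelium and no member of the set, read 1.15 and 0.427 in the Wnt3A arrays and 0.876 and 0.879 in the Control arrays.

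None of the 5 ligand probes (of Dll1, Dll4, Jag1 and Jag2) passed in limma, and 0 had an unadjusted p under 0.05. Dll1 (chr17:15072622-15072681), whose product is the ligand added to OP9 cells for T cell culture, was low on all arrays, at 0.0803 and 0.387 in the Wnt3A arrays and 0.340 and 0.142 in the Control arrays. The highest and the lowest value were both from Wnt3A arrays. Its 10 spots had standard deviations of 0.14 to 0.21 (log2) within an array, against 1.58 between the Wnt3A arrays and 0.96 between the Control arrays, so arrays of a group differed by more than the spots did. The log2 difference of -0.31 had an interval of -2.85 to 2.24 (adjusted p 0.932 in limma).

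Dll4 (chr2:119026484-119026543), a Delta ligand with a large part in blood vessel growth and in the thymus, read 4.38 and 4.29 in the Wnt3A arrays and 7.71 and 4.20 in the Control arrays. Control replicate 1 stood above the other arrays, which were close together, and the difference was -0.38 (interval -1.59 to 0.83, adjusted p 0.787 in limma). Jag2 (chr12:113356484-113356543) read 0.133 and 0.110 in the Wnt3A arrays and 0.302 and 0.158 in the Control arrays. Both Wnt3A arrays were lower, by 0.85 on the log2 scale, but the interval of -2.12 to 0.43 includes 0 (adjusted p 0.540).

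Jag1 encodes a Jagged ligand made by many stromal cells, and its probes differed. The brighter one (chr2:136774647-136774706, base 3489) read 5.11 and 5.97 in the Wnt3A arrays and 3.87 and 6.89 in the Control arrays. The Wnt3A arrays lay between the Control arrays, with a difference of 0.11 (interval -0.95 to 1.16, adjusted p 0.944 in limma). The probe nearer the end of the transcript (chr2:136773138-136773197, base 4998) read 3.52 and 0.512 in the Wnt3A arrays and 3.53 and 6.98 in the Control arrays. This was a difference of -1.88 ± 1.05 that rested on Wnt3A replicate 2 and did not pass (adjusted p 0.542). In the scanner files this probe was well above background in 1 file only, that of Control replicate 2.

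The target genes Hes1 and Hey1 encode repressors of transcription that the activated receptor switches on in many cells. Hes1 read 18.2 and 19.7 in the Wnt3A arrays, against 9.34 and 0.540 in the Control arrays. Both Wnt3A arrays were higher, but the Control arrays differed from each other on the log2 scale by more than Control replicate 1 differed from either Wnt3A array, and the log2 difference of 3.09 ± 1.47 did not pass (interval -0.89 to 7.06, adjusted p 0.477 in limma). It was 0.98 without Control replicate 2 and 5.20 without Control replicate 1. Hey1 (chr3:8646505-8646564) read 0.392 and 2.27 in the Wnt3A arrays and 4.65 and 6.93 in the Control arrays. Both Wnt3A arrays were lower, by -2.58 ± 0.92 on the log2 scale, which did not pass either (interval -5.06 to -0.10, adjusted p 0.355). The values of the targets thus lay on opposite sides of 0, and the difference between them was not tested. In the scanner files Hes1 differed by -1.47 ± 1.42 (SE pooled over probes), against the direction in the table. Hey1 was well above background in 1 file only, that of Wnt3A replicate 1.

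**Figure D3:**
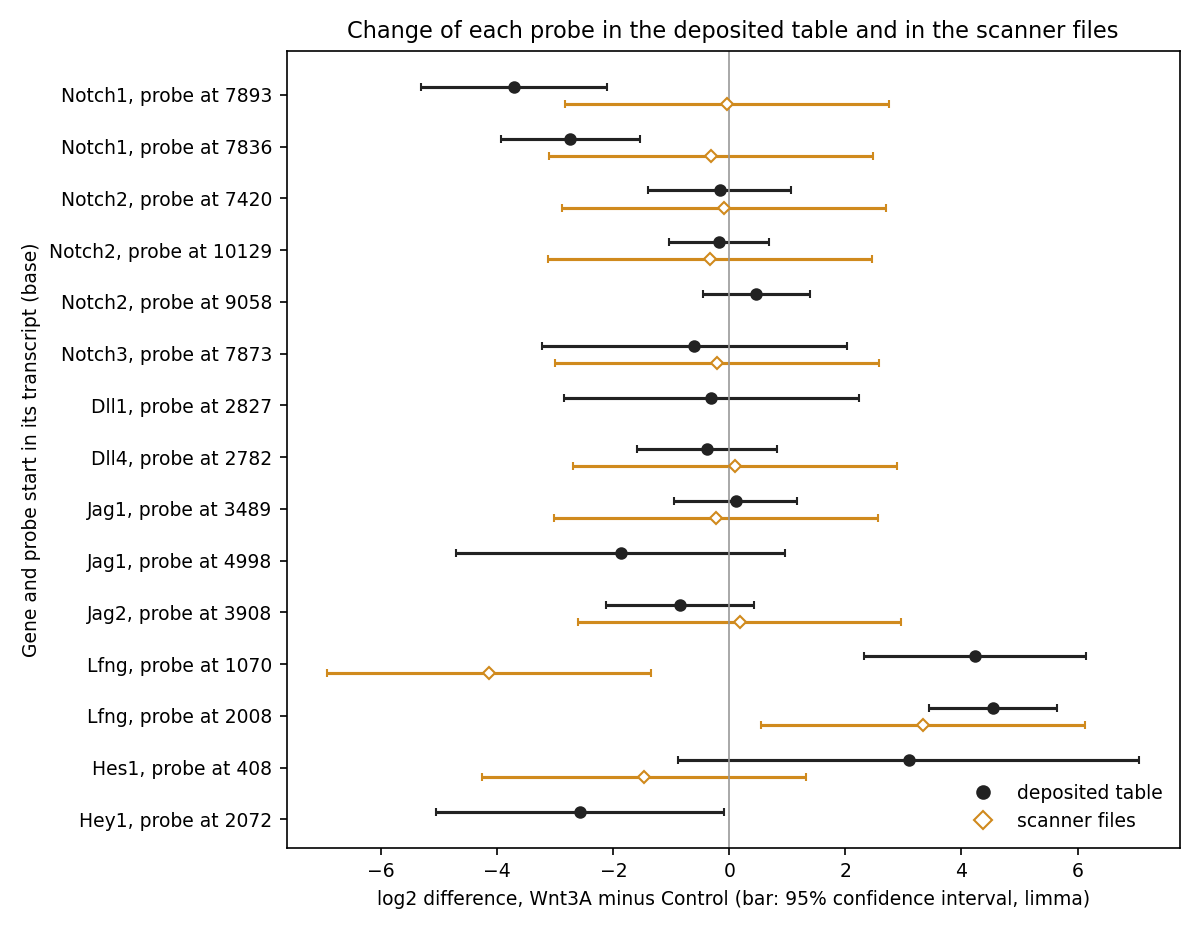
Log2 difference of Wnt3A minus Control for each member probe (x axis) with its 95% confidence interval, from the deposited table (filled circles) and from the scanner files (open diamonds, for the 11 probes measured there). The scanner intervals all use the same SE of 1.42, pooled over probes. The table's intervals exclude 0 for both Lfng probes (4.23 and 4.55), both Notch1 probes (-2.74 and -3.71) and Hey1 (-2.58), while the scanner interval of 1 Lfng probe lies below 0 and that of the other above it.

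Over the 10 genes, each by its brightest probe, 3 were higher and 7 lower, with a median log2 difference of -0.35, and the median of all 22859 genes tested was -0.01. The groups did not overlap for 5 genes, 2 higher (Lfng, Hes1) and 3 lower (Notch1, Jag2, Hey1), against 21.5% of all genes higher and 23.7% lower. The members' shares are close to these. Of the 11 member probes that the scanner files measured, 6 had the same sign of difference as in the table and 5 the opposite sign.

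Other genes of the pathway gave no calls. Of 61 genes in 7 lists by role, 59 were tested (Dll3 and Nrarp were below the floor on all 4 arrays), and 0 rose and 0 fell in limma, with 4 higher and 0 lower at an unadjusted p under 0.05. Over all genes 0.402% rose and 0.241% fell, and 6.31% were higher and 6.34% lower at an unadjusted p under 0.05. Of the 59 genes, 31 were higher and 28 lower, and the median log2 difference was 0.01.

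The fringes and other enzymes that put sugars on the receptor had 8 genes tested, 4 higher and 4 lower, with a median of 0.07. The other fringes lay near 0: Rfng, which encodes Radical fringe, read 8.82 and 11.8 in the Wnt3A arrays and 6.14 and 9.92 in the Control arrays. Mfng, which encodes Manic fringe, read 0.234 and 0.286 in the Wnt3A arrays and 0.234 and 0.403 in the Control arrays. The differences of 0.40 for Rfng and -0.24 for Mfng overlapped between groups, and whether they differ from that of Lfng was not tested. Gxylt2, whose product adds xylose to the O-glucose on Notch, read 6.89 and 2.26 in the Wnt3A arrays and 0.0771 and 0.0132 in the Control arrays. Control replicate 2 was below its floor of 0.0631, so the fitted log2 difference of 6.96 ± 1.11 (adjusted p 0.113 in limma) rests in part on a value not above background and gives no exact size. Xxylt1, which extends that xylose, had a difference of 0.50 (adjusted p 0.633).

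Among the ubiquitin ligases that drive uptake of bound ligands, 2 of 4 were higher. Neurl1b read 2.19 and 2.20 in the Wnt3A arrays and 0.570 and 1.59 in the Control arrays (log2 difference 1.22, adjusted p 0.456 in limma), and Neurl1a read 8.64 and 10.8 in the Wnt3A arrays and 14.2 and 21.2 in the Control arrays (-0.83, 0.422). The 9 genes of receptor processing, the proteases and the subunits of gamma-secretase, had 4 higher and 5 lower and a median of -0.17. Ncstn, the gamma-secretase subunit nicastrin, had a difference of 0.71 (adjusted p 0.464 in limma) and Psen2, a catalytic subunit, one of -1.50 (0.592). Psen2 read 7.70 and 1.33 in the Wnt3A arrays and 7.16 and 11.6 in the Control arrays. These groups overlapped, and the difference rested on Wnt3A replicate 2. The 9 genes of receptor turnover had a median of 0.01, and those with the smallest p were Aak1 (0.63, adjusted p 0.631) and Numb, an inhibitor of Notch (-0.57, 0.649).

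The nuclear complex and its cofactors had 9 genes higher and 9 lower and a median of -0.10. Rbpj itself, named here for its role, read 1.85 and 0.713 in the Wnt3A arrays and 1.55 and 1.60 in the Control arrays. Tle4, a Groucho corepressor that also acts on TCF/LEF factors, read 0.305 and 0.222 in the Wnt3A arrays and 0.0809 and 0.0583 in the Control arrays, of which 1 was above the floor, so the fitted difference of 1.93 ± 0.39 (adjusted p 0.167 in limma) is likewise not exact. Of 7 other target genes tested, 5 were higher and 2 lower, with a median of 0.05. Hes6 read 10.46 and 11.1 in the Wnt3A arrays and 4.47 and 6.90 in the Control arrays (0.97, adjusted p 0.355 in limma), and Heyl read 7.69 and 6.78 in the Wnt3A arrays and 4.82 and 4.17 in the Control arrays (0.70, 0.462). In both, the Wnt3A arrays lay above the Control arrays. The other receptor and ligand genes had 2 higher and 2 lower, with Dner at -0.53 and Dlk2 at 0.30.

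**Figure D4:**
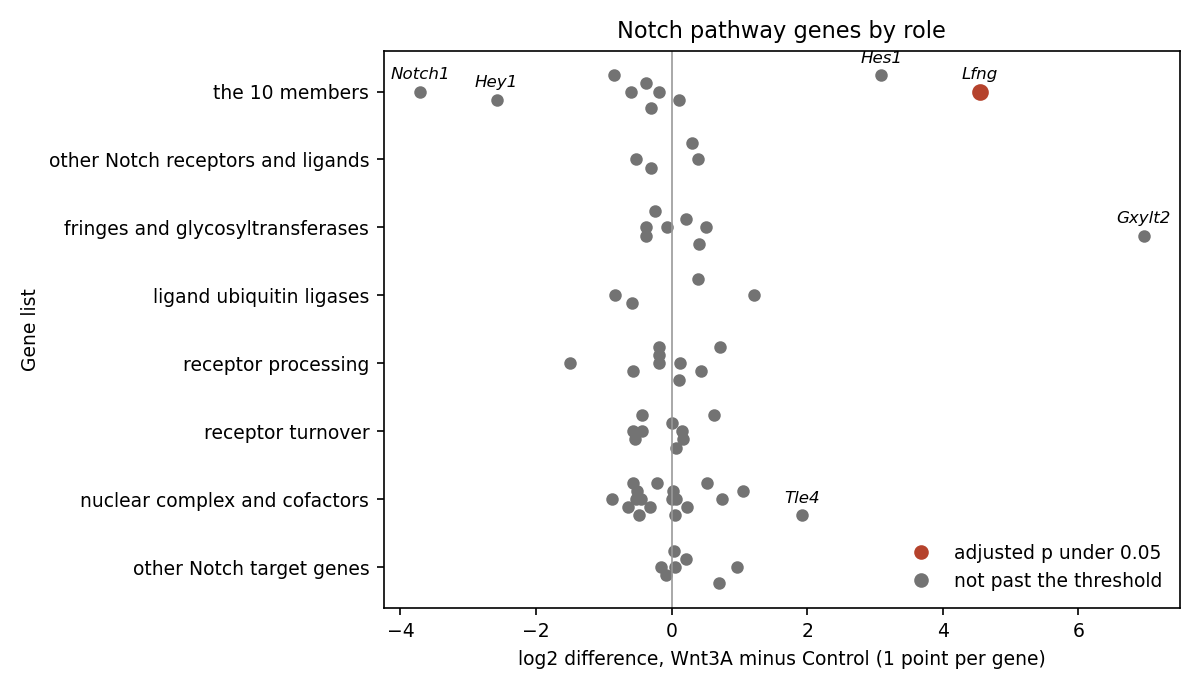
Log2 difference of Wnt3A minus Control (x axis) of each tested pathway gene, 1 point per gene by its brightest probe, in rows by role (y axis; vertical offsets within a row only separate points), with red for an adjusted p under 0.05. Lfng, at 4.55, is the 1 gene past the threshold, and apart from Gxylt2 (6.96) and Tle4 (1.93), each with 1 Control array below the floor and so without an exact size, the genes outside the 10 members lie between -1.50 and 1.22.

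For 6 members whose brightest probe ranged over more than 2 (log2) across the 4 arrays, the genes with the most similar profile were sought among 21173 genes above the floor on all arrays, by the Euclidean distance of their centred log2 values. The genes nearest to Lfng were Adgrl2, Sp7 and Thsd4, at distances of 0.48, 0.49 and 0.50, with log2 differences of 4.67, 4.57 and 4.58. Those nearest to Notch1 were Prss23, C920021L13Rik and Deptor, at 0.20, 0.23 and 0.50, with differences of -3.89, -3.70 and -3.56. Nearest to Hey1 were Serpinb9g, Gpr63 and Mbd4 (0.41 to 0.53), nearest to Hes1 were Dennd4a, Stx18 and Exoc6 (0.81 to 0.91), nearest to Notch3 were Polr3gl, Slc9b1 and Hint2 (0.14 to 0.24), and nearest to Dll1 were Galnt4, Idnk and Whamm (0.24 to 0.33). These distances rest on 4 arrays and are given as descriptions.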

How the data were processed

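The authors' deposited table holds a linear intensity per spot (43379 non-control spots), scaled to a median of 1 per array by steps not given in the sources used here. The deposited scanner files hold intensities from Agilent Feature Extraction 10.5.1.1, per the file headers, unscaled between arrays, with other values such as detection flags deposited as 0 or 1. All 4 headers name 1 slide and 1 scan. RNA was amplified by PCR before labelling, per the labels' protocols. Table rows were joined to probes by feature number. The members and lists were chosen with earlier results of these data known. So was the table as main source: the rule for the members names it, and arrays of a group were more alike in it than in the scanner files, a reason that bears on the comparison itself.

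Log2 intensities were centred on the 75th percentile of their array, and spots of a probe were averaged. The floor was 4.94 times the 1st percentile of an array, the factor being the median over scanner files of the lowest signal flagged well above background over the 1st percentile. Probes above it on both arrays of a group were kept (33709 probes, 22859 genes, each gene by its brightest probe). The test was that of limma (version 3.58.1, R 4.3.3, lmFit and eBayes, two-sided, 2 residual and 2.29 prior degrees of freedom), with Benjamini-Hochberg adjustment over all kept probes and a threshold of 0.05. No exact test of 2 against 2 arrays goes below 0.333, and the number of arrays limits the precision. On simulated data of 33709 probes this comparison recovered 78.4% of log2 changes of 4, and 2% of those of 2. The simulated noise followed a normal distribution with the fitted SE of each probe as its standard deviation. These shares need not hold for the real arrays. Genes were named all 10 members, per pathway list those called or else the 2 with the smallest p, and the 3 nearest profiles of members with a log2 range over 2. One gene that this rule names is not reported here.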

Additional observations from a re-analysis of the deposited data

How the results depend on the processing

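Over all probes, 143 rose and 86 fell in limma. The fit with no filter had 35 that rose and 19 that fell, and the strictest filter (every array above the floor) 26 and 19. With a floor 2 times as high 131 fell, and with trend and robust settings 158 fell. The scanner values gave 0 that rose and 2 that fell (751 at an unadjusted p under 0.05), with normexp 0 and 0 (388), and without the faint file of Control replicate 1, a setting chosen after seeing the data, 0 and 0 (943). Leaving out 1 array gave 0 and 0 in each of the 4 fits (3476 to 4253 at an unadjusted p under 0.05). With the replicate number as a block 0 rose and 0 fell (4367), and Lfng had an adjusted p of 0.0987. The labels do not say that the numbers pair the samples, and the deviations of same-numbered arrays correlated at 0.012. The Lfng call (1 member probe) was lost, leaving 0, with quantile normalization (0.0516), no filter (0.0710), the strictest filter (0.0576), averaged probes per gene (0.0570), the replicate block, each left-out array and all 3 scanner settings, at log2 differences from 1.90 to 4.86. No other member and no other pathway gene passed in any setting.

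Under other settings 5 members (Notch1, Jag2, Lfng, Hes1, Hey1) kept their direction throughout the table. Their groups did not overlap, so leaving out 1 array could not reverse them. The settings that changed only the filter, the trend and robust options or the block refitted the same values. Their unchanged direction is therefore no evidence of stability. Averaged over its probes Notch2 was 0.04 and Jag1 -0.88. Over the fits that left out 1 array, Notch2 ran from -0.36 to 0.00, Notch3 from -1.75 to 0.55, Dll1 from -1.43 to 0.81, Dll4 from -0.87 to 0.11 and Jag1 from -0.26 to 0.47. In the scanner files Dll4 was 0.09 (0.59 with normexp, 0.69 without Control replicate 1), Jag1 -0.22 (-0.16 with normexp, but 0.52 without Control replicate 1), Jag2 0.18 (-0.77 with normexp, 0.37 without Control replicate 1) and Hes1 -1.47 (-1.74 and -2.29). Notch3 was -0.22 (-0.43 with normexp, but 0.20 without Control replicate 1), so for Jag1, Jag2 and Notch3 the sign differed between scanner settings. Notch1 was -0.04 there. The cause was not tested.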
